A study of Drosophila melanogaster with 82 samples.

Results

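Fatp1 encodes a fatty acid transport protein of Drosophila melanogaster, and its message was followed here in 7 tissues on 2 foods. The arrays carry 1 transcript paired with Fatp1, FBtr0080133, of 16637 transcripts in all. Its 8 probes, of the 132998 probes that belong to transcripts, were found by the transcript identifier that starts their names. The gene table used here pairs that identifier with Fatp1 through synonyms for the main and an upstream open reading frame of this transcript, lists SLC27 among the gene's synonyms, and gives 4 transcripts for the gene. The 8 probes may therefore match other Fatp1 transcripts as well, and their sequences were not used here.

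Fatty acid transport proteins sit in cell membranes, promote the uptake of long-chain fatty acids and join fatty acids to coenzyme A, which holds them inside the cell for storage as triglyceride, for membrane lipids or for oxidation. In the fly eye, loss of Fatp leads to degeneration of photoreceptors, and Fatp in retinal pigment glia promotes the formation of lipid droplets. The fat body is the fly's main store of fat and the gut takes up dietary lipid, while the Malpighian tubules are its excretory organs. An upstream open reading frame, such as the one named for this transcript, can in general change how often the main reading frame is translated.

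The study asked how translating messenger RNA in each tissue responds to nutrients. Adult females carried 1 copy of UAS-RpL13A-His6FLAG, a tagged ribosomal protein, and 1 copy of a GAL4 driver that switches the tag on in the labelled tissue: S106-GS-GAL4 for fat body, NGT-GAL4 for germ line, MYOIA-GAL4 for gut, HAND4.2-GAL4 for heart, MHC-GAL4 for muscle, C155-GAL4 for neuron and C42-GAL4 for tubule. Within 2 to 3 days of eclosion the flies went onto AL food with 5% yeast extract or onto DR food with 0.5% yeast extract, stayed there for 10 days and were collected at 13 days of age. Tagged ribosomes and their messages were pulled down from homogenates of whole flies, from about 100 flies per pool and 200 for neuron. Each of the 82 arrays measured 1 pool, and each of the 14 groups had 6 pools except heart AL and neuron AL, which had 5.

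Several properties of these groups limit what a level means. The tissues are separated only by the driver, so a driver that is active elsewhere adds messages of other cells. Intensities were equalized between the arrays of a tissue, so a value is relative to the other messages on its array. A higher value can come from another mix of tagged cells, more message per cell or more ribosomes per message. These cannot be told apart. None of the 34 marker genes of the 7 tissues could be matched to a transcript on the arrays, so the tissue labels were not checked against markers. Of 40 genes of fatty acid and lipid metabolism looked up in the same way, 1 was matched, Fatp1 itself.

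Most arrays resembled the others of their group, with the mean Pearson correlation of an array's transcript levels with its group above 0.97 on all but 12 of the 82 arrays. All 6 germ line DR arrays were among the 12, at 0.863 for pool 6 to 0.958 for pool 4, and so were 4 neuron DR arrays, lowest at 0.945 for pool 5. The other arrays under 0.97 were muscle DR pool 4 at 0.956 and tubule AL pool 4 at 0.969. Results in these tissues are also given without the lowest array of the group. Fatp1 lay well above background throughout: its mean exceeded the 95th percentile of the array's control probes by 3.54 to 7.05 on the log2 scale, and no Fatp1 probe value fell below that percentile on any array.

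On DR food Fatp1 rose in neuron, tubule and fat body, in that order of size, and its mean over the 8 probes did not pass in germ line, heart, muscle or gut. All values in this comparison are log2 intensities on the deposited scale, averaged over the 8 probes, and a difference of 1 is 2-fold. The test was limma's moderated test in 1 fit of the 14 groups, with Benjamini-Hochberg adjustment of p over 16637 transcripts and a threshold of 0.05.

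In neuron, the 5 AL pools read 11.48, 11.56, 11.64, 11.64 and 11.74. The 6 DR pools ran from 12.69 through a median of 13.17 to 13.33. Every DR pool was above every AL pool, as held for 22.1% of all transcripts. The rise was 1.44 (SE 0.16; 95% interval 1.11 to 1.77), or 2.71-fold, with a limma adjusted p of 2.21e-12. Fatp1 was then 1 of the 28.4% of transcripts that passed as higher on DR food in neuron, which is a large background. AL and DR profiles over all transcripts were also less alike in neuron (Pearson r = 0.898 between group means) than in the other 6 tissues (0.933 to 0.983). Without DR pool 5 the rise was 1.38 (limma adjusted p = 3.89e-11).

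In tubule, AL pools ran from 11.30 through a median of 12.52 to 12.81 and DR pools from 13.25 through 13.29 to 13.38. The DR pools lay close together and all above the AL pools, a separation that 17% of all transcripts shared. AL pool 4 alone, at 11.30, stood apart from the other AL pools, which lay between 12.42 and 12.81. The rise was 0.94 (SE 0.16; 95% interval 0.63 to 1.25), or 1.92-fold, with a limma adjusted p of 5.64e-07. Without AL pool 4 it was 0.73, or 1.66-fold, and still passed (limma adjusted p = 1.78e-05). In tubule 20.4% of transcripts passed as higher.

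In fat body, AL pools ran from 13.27 through a median of 13.38 to 13.53 and DR pools from 13.76 through 14.02 to 14.15. The groups did not overlap, as for 15.7% of all transcripts. The rise was 0.59 (SE 0.16; 95% interval 0.28 to 0.90), or 1.50-fold, with a limma adjusted p of 0.00142, and 20.3% of transcripts passed as higher.

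**Figure D1:**
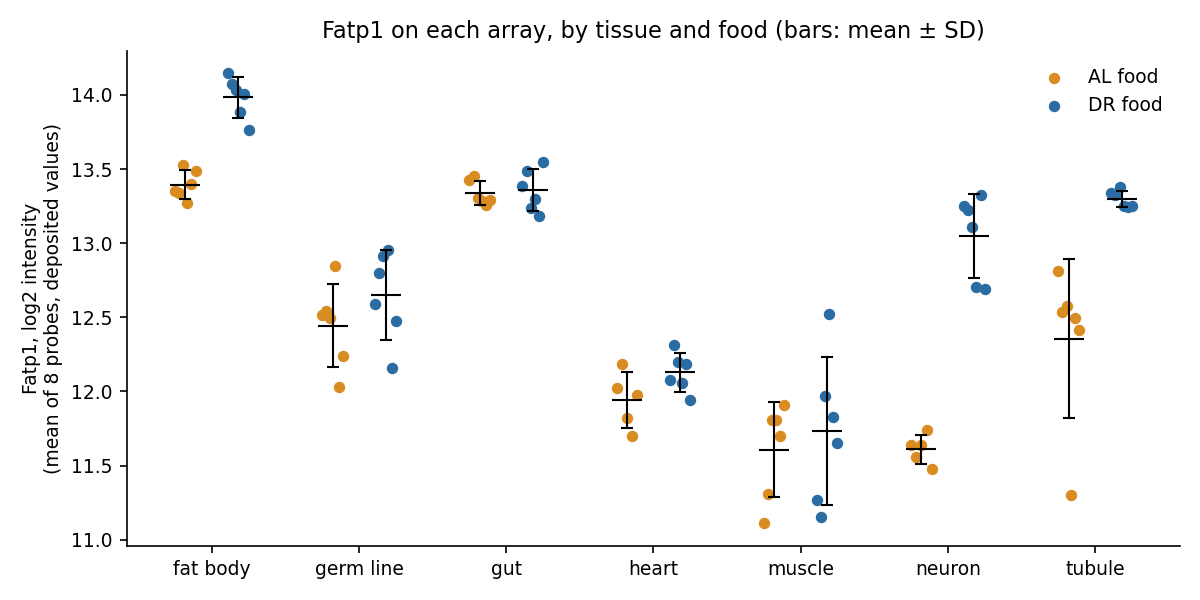
Fatp1 on each of the 82 arrays, as the log2 intensity averaged over 8 probes on the deposited scale (vertical axis), by tissue and food (horizontal axis). Each point is 1 pool and bars give the mean ± SD of a group. DR pools lie above all AL pools in fat body, neuron and tubule and overlap them in the other 4 tissues. Levels are scaled within a tissue, so heights are not to be compared between tissues.

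The other 4 tissues gave overlapping pools. In germ line, AL pools ran from 12.03 through a median of 12.50 to 12.85 and DR pools from 12.16 through 12.70 to 12.95. The difference was 0.20 (95% interval -0.11 to 0.51; limma adjusted p = 0.233), in a tissue where 34.2% of transcripts passed as higher, and 0.24 without DR pool 6 (limma adjusted p = 0.177). Leaving out 1 pool at a time gave 0.12 to 0.30, the lowest without AL pool 5, and none passed. The call depends on the normalization: after quantile normalization over all arrays the germ line rise passed at 0.50 (limma adjusted p = 0.00651), and after cyclic loess at 0.52 (limma adjusted p = 0.00432). The germ line mean joins probes that moved in opposite directions, as the single probes show.

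In heart, the 5 AL pools read 11.70, 11.82, 11.98, 12.02 and 12.19, and DR pools ran from 11.94 through a median of 12.13 to 12.31. The difference was 0.19 (95% interval -0.14 to 0.51; limma adjusted p = 0.341; 25.1% of transcripts passed as higher). DR pools leaned to the upper end of the AL range. With arrays centred on their median the heart rise passed at 0.39 (limma adjusted p = 0.0390), and with array weights at 0.26 (limma adjusted p = 0.00993).

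In muscle, AL pools ran from 11.11 through a median of 11.75 to 11.91 and DR pools from 11.15 through 11.74 to 12.52. The medians were nearly equal, and the highest DR value was that of pool 4. The difference was 0.12 (95% interval -0.19 to 0.43; limma adjusted p = 0.508; 27.8% of transcripts passed as higher), and -0.03 without DR pool 4, where it did not pass either (limma adjusted p = 0.859). After cyclic loess the muscle rise passed at 0.36 (limma adjusted p = 0.0489).

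In gut, AL pools ran from 13.26 through a median of 13.30 to 13.45 and DR pools from 13.18 through 13.34 to 13.55. The DR range enclosed the AL range. The difference was 0.02 (95% interval -0.29 to 0.33; limma adjusted p = 0.934; 18.1% of transcripts passed as higher), so a change as large as the 0.59 of fat body lies outside the interval for gut.

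A two-sided exact permutation test of the Fatp1 value within each tissue, which takes no spread from other groups or transcripts, gave p = 0.00216 in fat body, neuron and tubule, the smallest value that the pools allow. Adjusted over the 7 tissues that is 0.00505. The adjusted exact p was 0.152 in heart, 0.339 in germ line, 0.715 in muscle and 0.766 in gut.

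Over the 7 tissues the mean change was 0.50 (SE 0.06; limma adjusted p = 9.67e-12), higher on DR food, a direction and call shared by 41.1% of transcripts. The changes differed between tissues (limma moderated F = 10.7, adjusted p = 5.69e-08), but 90% of all transcripts also passed that test. Of the 21 pairs of tissues, 10 differed in the Fatp1 change after adjustment over all transcripts and pairs, against 37% of all transcript and pair combinations.

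Neuron exceeded fat body by 0.85 (SE 0.23, adjusted p = 0.00174), heart by 1.25, germ line by 1.24, muscle by 1.32 and gut by 1.42. In each of these neuron pairs most transcripts differed, from 54.7% with gut to 60.5% with heart. Tubule exceeded heart by 0.76, germ line by 0.74, muscle by 0.82 and gut by 0.92. The share of transcripts that differed in these tubule pairs ran from 19% with gut to 44.2% with germ line. Fat body exceeded gut by 0.57 (SE 0.22, adjusted p = 0.0349), a pair in which 18.2% of transcripts differed. Neuron and tubule differed by 0.50, which did not pass (SE 0.23, adjusted p = 0.0743), and neither did tubule and fat body (0.35, SE 0.22, adjusted p = 0.209). Without tubule AL pool 4, the low pool, 12 of the 21 pairs passed. Neuron then exceeded tubule by 0.71 (SE 0.20, adjusted p = 0.00311) and fat body exceeded muscle by 0.46 (SE 0.19, adjusted p = 0.0461), while tubule and fat body again did not pass (0.14, adjusted p = 0.605).

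**Figure D2:**
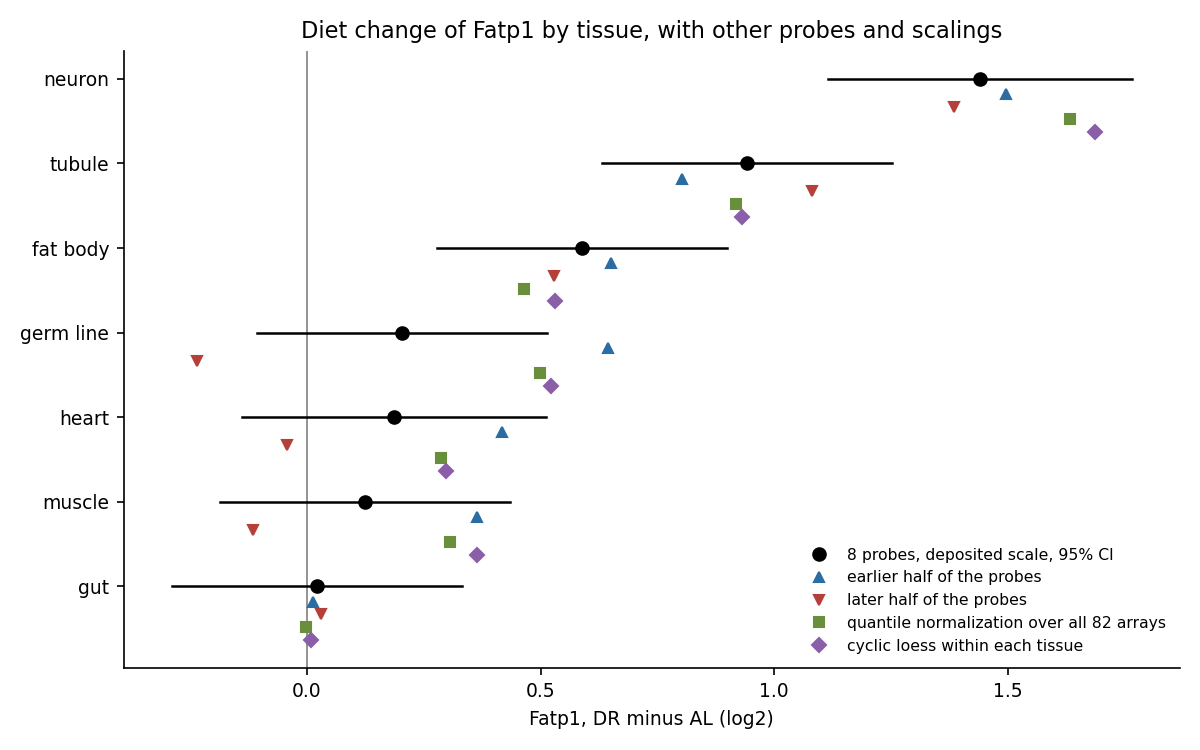
DR minus AL difference of Fatp1 (horizontal axis, log2) in each tissue, ordered by size. Black points with lines are the mean of 8 probes with its 95% interval. Triangles use probes 1 to 4 (up) or 5 to 8 (down), squares a quantile normalization over all 82 arrays and diamonds cyclic loess. Neuron, tubule and fat body stay to the right of 0 under each, while the down triangles of germ line, heart and muscle lie left of 0 and the up triangles right of it.

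Between tissues, Fatp1 was highest in fat body and gut and lowest in muscle and neuron on AL food. These levels are log2 intensities after all 82 arrays were brought to the same quantiles, a scale that holds only as far as the distribution of levels is alike in every tissue. On AL food the means were 13.26 ± 0.07 (SD, n = 6) in fat body, 13.26 ± 0.06 in gut (n = 6), 12.48 ± 0.21 in heart (n = 5), 12.22 ± 0.36 in germ line (n = 6), 12.20 ± 0.57 in tubule (n = 6), 11.70 ± 0.31 in muscle (n = 6) and 10.97 ± 0.11 in neuron (n = 5). Of 21 pairs of tissues 17 differed by limma's test, adjusted over all transcripts and pairs, against 60.4% of all such combinations. The 4 pairs that did not pass were fat body with gut and the 3 pairs among heart, germ line and tubule. Fat body exceeded neuron by 2.29 (SE 0.17), the widest gap on AL food.

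On DR food neuron and tubule moved up in this order. The DR means were 13.72 ± 0.11 (SD, n = 6 here and in the other DR groups) in fat body, 13.25 ± 0.11 in gut, 13.12 ± 0.06 in tubule, 12.76 ± 0.10 in heart, 12.71 ± 0.46 in germ line, 12.60 ± 0.34 in neuron and 12.01 ± 0.39 in muscle. Muscle was now lowest. Again 17 of 21 pairs differed, against 67.8% of all combinations, and the 4 that did not were gut with tubule and the 3 pairs among heart, germ line and neuron. Fat body and gut, which did not pass as different on AL food, differed by 0.47 (SE 0.16, adjusted p = 0.00898).

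The order depends in part on the scale. With arrays centred on the median of their control probes, gut came first and fat body second on AL food, and the rank correlation with the order above was 0.786, the lowest of the 4 other scales tried on either food. Fat body and gut held the first 2 places on AL food under each of them, and fat body was first and muscle last on DR food under each. On AL food the last place went to neuron or to muscle.

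**Figure D3:**
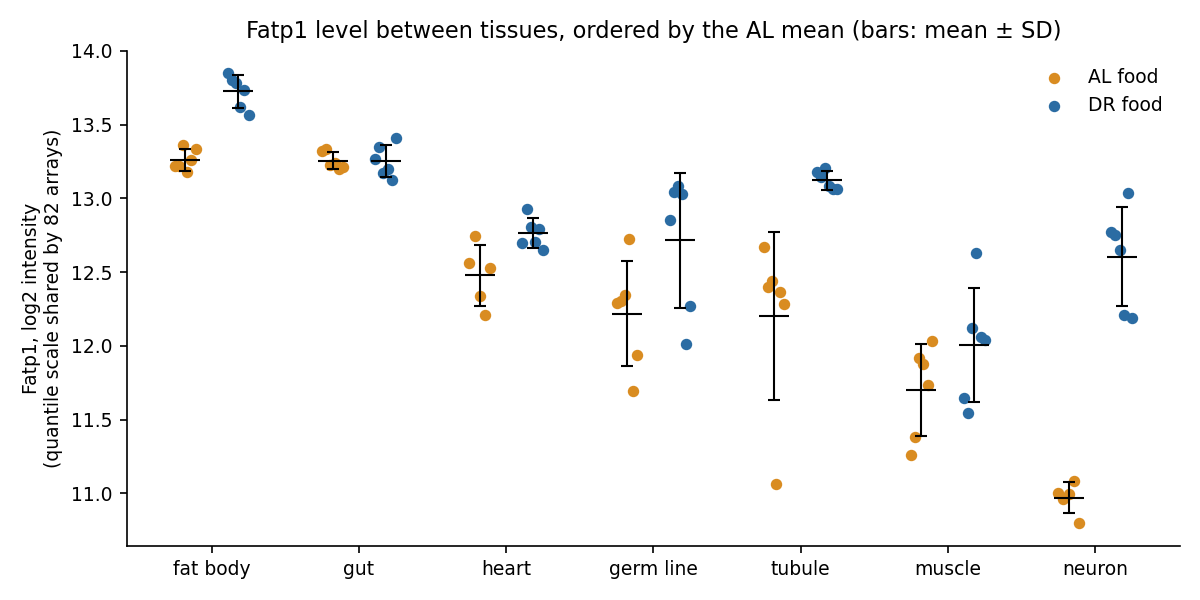
Fatp1 level on each array on a quantile scale shared by all 82 arrays (vertical axis, log2 intensity), with tissues ordered by their AL mean. Each point is 1 pool and bars give the mean ± SD. Neuron AL pools lie lowest, at 10.80 to 11.08, and fat body DR pools highest, at 13.56 to 13.85.

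The 8 probes, numbered 1 to 8 by the number in their names (487, 700, 709, 916, 1202, 1400, 1681 and 1775), were then tested separately. That the number counts bases along the transcript was not checked, since no probe sequence was used here. The probes share arrays and a target, so they are not replicates. Each was tested with limma on its own log2 intensity, with p adjusted over 132998 probes. Over 56 tests, 8 probes in 7 tissues, 27 passed as higher on DR food and 1 as lower.

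In neuron all 8 probes passed as higher, with rises from 1.18 for probe 8 to 1.65 for probe 2, where 24.9% of all probes did. For probe 2, the AL pools read 12.47, 12.71, 12.84, 12.86 and 12.92 and the DR pools ran from 13.95 through a median of 14.55 to 14.57. All 8 probes had every DR pool above every AL pool. The share of all probes separated in this way was not counted in any tissue. For transcript means it was 22.1% in neuron and 17% in tubule. The span between the probes' changes, 0.47, compares with a median span of 1.03 over all transcripts with 8 probes in neuron.

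In tubule all 8 passed as higher, from 0.72 for probe 4 to 1.27 for probe 8, again with separated pools for each, against 14.8% of all probes. In fat body 6 of 8 passed as higher, against 15.3% of all probes, with the largest rise at probe 3 (0.74). The exceptions in fat body were probe 6 (0.31, limma adjusted p = 0.199) and probe 8 (0.50, limma adjusted p = 0.0823). Gut and muscle had no probe that passed in either direction, in tissues where 12.3% and 16% of all probes passed as higher. The gut differences lay between -0.26 and 0.22. Without muscle DR pool 4, probe 5 passed as lower in muscle (-0.58, limma adjusted p = 0.0348). The share of all probes called lower was counted only in germ line.

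In germ line the probes split. The span between their changes, 1.33, compares with a median span of 1.12 over all transcripts with 8 probes in germ line. Probes 1 to 4 passed as higher, with rises of 0.64, 0.61, 0.72 and 0.62, where 21.1% of all probes were called higher. Probes 5, 6 and 7 gave -0.26, -0.05 and -0.03 and did not pass. Probe 8 fell by 0.61 (limma adjusted p = 0.0181), where 27.5% of all probes were called lower. For probe 1, AL pools ran from 12.97 through a median of 13.43 to 13.75 and DR pools from 13.41 through 14.25 to 14.50. For probe 8, AL pools ran from 10.81 through a median of 10.97 to 11.59 and DR pools from 10.00 through 10.36 to 10.97. Pools of the 2 foods overlapped for each single germ line probe. Without DR pool 6, again 4 probes passed as higher and 1 as lower.

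In heart 1 probe of 8 passed as higher, against 18.2% of all probes. This was probe 3 at 0.93, and it rests on 1 spot: AL pool 4 read 10.29, while the other AL pools read 13.05, 13.10, 13.20 and 13.46 and the DR pools ran from 13.25 through a median of 13.49 to 13.98. Without that pool no heart probe passed. With all pools the span between the heart probes' changes was 1.36, against a median of 1.26 over transcripts with 8 probes.

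**Figure D4:**
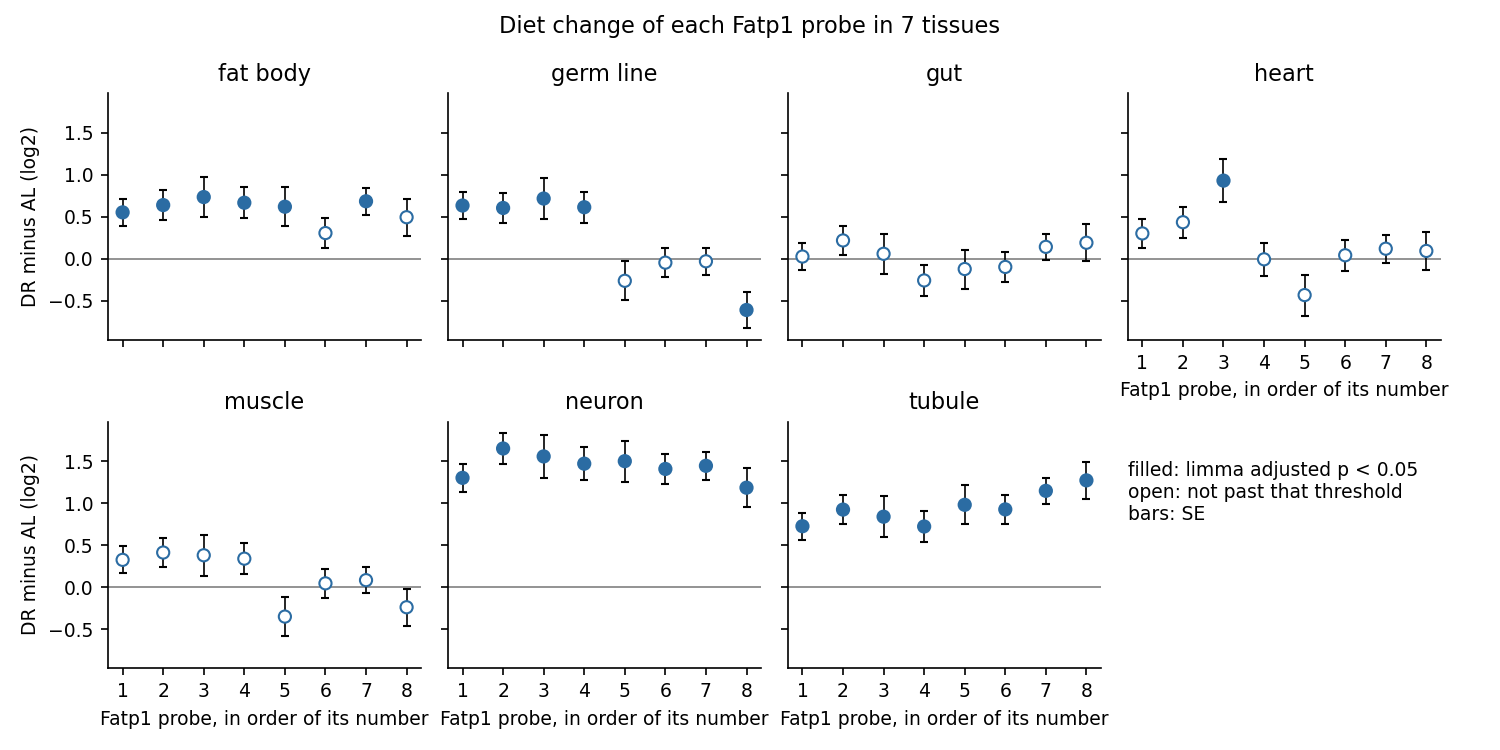
DR minus AL difference (vertical axis, log2) of each Fatp1 probe, in order of the number in its name (horizontal axis), in 7 tissues. Bars give the SE, filled points passed limma's test (adjusted p under 0.05) and open points did not. All 8 points are filled in neuron and tubule, while germ line steps down between probes 4 and 5.

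Following the germ line step between probes 4 and 5, a measure was taken on each array. It was the mean log2 value of probes 5 to 8 minus that of probes 1 to 4. Since probes bind with different strength, the value itself says nothing about the message, so only its differences between foods or tissues were compared. Whether such a difference comes from the message or from the probe signal was not tested. It was compared between foods with a two-sided exact permutation test within each tissue, adjusted over 7 tissues, and with limma over the 16634 transcripts that have probes in both sets.

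In germ line it ran from -2.25 through a median of -1.88 to -1.79 on AL food and from -3.23 through -2.79 to -2.28 on DR food. Every DR pool was below every AL pool, a separation whose share over all transcripts was not counted. The difference, -0.88 (SE 0.13), passed both tests (adjusted exact p = 0.00758, limma adjusted p = 1.24e-07), and 35.1% of transcripts passed in germ line in either direction. Set among the 16616 transcripts with 8 probes, whose median was -0.02, Fatp1 stood at the 3.12 percentile in germ line. Without germ line DR pool 6 the difference was -0.99.

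Muscle and heart moved the same way. In muscle the value ran from -2.36 through a median of -2.19 to -1.78 on AL food and from -2.93 through -2.56 to -2.35 on DR food, nearly without overlap. The muscle difference was -0.48 (SE 0.13; adjusted exact p = 0.00758; limma adjusted p = 0.00406; 20.6% of transcripts passed), and -0.53 without DR pool 4. In heart the AL pools read -1.44, -1.42, -1.31, -1.28 and -0.37 and the DR pools ran from -1.995 through -1.57 to -1.47. The heart AL value of -0.37 is pool 4, with the dim spot of probe 3. The heart difference was -0.46 (SE 0.13; adjusted exact p = 0.00758; limma adjusted p = 0.00515; 35.5% of transcripts passed). Without pool 4 it was -0.26 and no longer passed with limma (SE 0.13, adjusted p = 0.103). The other heart AL pools still lay above every DR pool. In the exact test the heart difference passed with each pool left out in turn (-0.53 to -0.26, highest adjusted exact p = 0.0333).

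Tubule moved the other way in the exact test. Its value ran from -1.16 through a median of -1.05 to -0.85 on AL food and from -0.86 through -0.73 to -0.70 on DR food, so that only the ends of the ranges overlapped. The difference was 0.28 (SE 0.13; adjusted exact p = 0.00758), which did not pass with limma (adjusted p = 0.231; 4.74% of transcripts passed). Fat body (-0.12), neuron (-0.11) and gut (0.02) passed neither test, in tissues where 7.56%, 27.8% and 5.7% of transcripts passed with limma. The food difference in this measure itself differed between tissues (limma F = 8.98, adjusted p = 7.16e-06), as for 48.4% of transcripts.

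**Figure D5:**
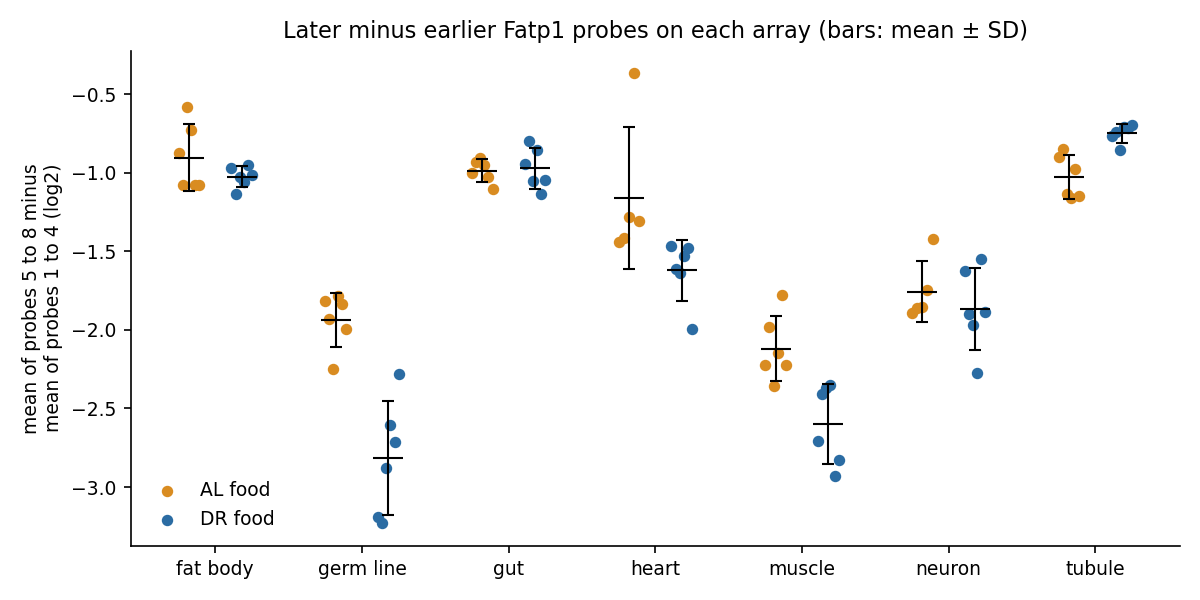
Mean of Fatp1 probes 5 to 8 minus mean of probes 1 to 4 on each array (vertical axis, log2), by tissue and food. Each point is 1 pool and bars give the mean ± SD. Germ line DR pools, at -3.23 to -2.28, all lie below the germ line AL pools, while fat body, gut and neuron pools of the foods overlap.

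The same measure differed between tissues on each food, on the deposited scale, which was not equalized between tissues. On AL food group means ran from -0.90 in fat body to -2.12 in muscle (limma F = 31, adjusted p = 8.31e-17; 80.9% of transcripts passed). On DR food they ran from -0.75 in tubule to -2.82 in germ line (limma F = 81.4, adjusted p = 4.97e-28; 92.4% passed). On AL food, the means of fat body, gut, tubule and heart lay between -0.90 and -1.16, and those of neuron, germ line and muscle between -1.76 and -2.12. The heart mean includes pool 4 at -0.37, with the dim spot of probe 3. The other heart AL pools lay between -1.44 and -1.28.

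Which probes were used therefore decides the call in 2 of the 4 tissues without a change of the mean. From probes 1 to 4 alone, Fatp1 rose on DR food in germ line by 0.64 (limma adjusted p = 0.000676) and in heart by 0.42 (limma adjusted p = 0.0384), while muscle gave 0.36 (limma adjusted p = 0.0590). The heart value was 0.26 without AL pool 4 and did not pass (limma adjusted p = 0.232). From probes 5 to 8 alone these tissues gave -0.24, -0.04 and -0.12, none of which passed. Neuron, tubule and fat body passed as higher from either set of probes, with 1.38, 1.08 and 0.53 from probes 5 to 8.

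Background signal was read from the control probes, first in germ line, heart and muscle. There the later minus earlier Fatp1 probes passed as lower on DR food in the exact test. In germ line the median log2 intensity of the control probes was 5.65 to 5.93 on AL arrays and 5.55 to 5.63 on DR arrays, apart from 6.39 on DR pool 6. In heart it was 5.28 to 5.66 on AL and 5.10 to 5.24 on DR arrays, and in muscle 5.69 to 6.03 on AL and 5.64 to 5.82 on DR arrays. The ranges did not overlap in heart, nor in germ line without DR pool 6, and overlapped in muscle. Group means on AL and DR arrays were 5.80 and 5.71 in germ line, 5.52 and 5.20 in heart, and 5.82 and 5.69 in muscle. They were also lower on DR arrays in gut (5.24 and 4.98) and fat body (5.31 and 5.17). In neuron they were 5.41 and 5.62, and in tubule 5.33 and 5.34. The part of this background in the food difference of the later minus earlier probes was not tested.

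Transcripts with a like pattern were looked up over the 16414 others that exceeded the control probes in at least 1 group. By Pearson correlation with the 14 group means of Fatp1 on the shared scale, FBtr0071444 (r = 0.945) and FBtr0076407 (r = 0.939) came first, and 91 transcripts had r above 0.8. By correlation with the 7 diet changes, FBtr0081463 (r = 0.986) and FBtr0113303 (r = 0.986) came first, and 379 had r above 0.9. FBtr0081463 rose by 2.75 in neuron, 1.69 in tubule and 1.37 in fat body, against 0.32 to 0.78 in the other 4 tissues, so it has the order of Fatp1 at the top with larger changes. It passed as higher in those 4 as well (limma adjusted p from 1.04e-06 in heart to 0.0258 in muscle), which the Fatp1 mean did not. Levels of FBtr0081463 and FBtr0113303 correlated with those of Fatp1 at only r = -0.250 and 0.027. All these correlations are descriptions over few points measured on the same arrays, and the 4 transcripts have no gene name in the tables used here. Among the transcripts that do have 1 gene symbol, alpha-Spec, which encodes a spectrin of the membrane skeleton, was most like Fatp1 on both counts (r = 0.620 for levels and 0.672 for diet changes), with rises of 0.84 in neuron, 0.76 in tubule and 0.74 in fat body. Unlike the Fatp1 mean, alpha-Spec also passed as higher in gut (0.55, limma adjusted p = 0.00172) and heart (0.45, limma adjusted p = 0.0101).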

How the data were processed

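Each array measured translating messenger RNA of 1 pool of flies. Per the labels' protocols, the authors eluted the RNA from FLAG beads, amplified the whole transcriptome by kit, added a Cy3 label and used single-colour NimbleGen arrays, with pulldown, amplification and labelling randomized over the groups. What they deposited are linear intensities per probe. Sorted and on the log2 scale, arrays of the same tissue differ by at most 0.04, so the deposited intensities were equalized within each tissue. Between tissues they were not. Which scanner, slides, background correction and annotation were used is not given in the sources used here, and slide or scan could not be used as a block. For arrays the number of pools limits the precision.

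Intensities were taken to log2 and averaged over a transcript's probes. All 82 arrays entered 1 limma fit of 14 group means (limma 3.58.1, R 4.3.3; 68 residual degrees of freedom). To compare levels between tissues, all arrays were quantile normalized together. P-values were adjusted over all transcripts of a contrast, and for pairs of tissues over transcripts and 21 pairs. Exact permutation tests and figures used Python 3.11.15 with numpy 2.4.6 and matplotlib 3.10.9. On simulated data for the neuron comparison, limma called 47 of 100 transcripts changed by 0.5 and 85 of 100 changed by 1 on the log2 scale. It made 6 false calls among the unchanged transcripts. In the simulation only 200 of 16637 transcripts changed, whereas 28.4% passed as higher in the real neuron data. The shares called may therefore differ in the real data.

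Gene names came from a table of a newer assembly that pairs 16 transcript identifiers with 1 gene, 28 with several and 16593 with none. Named were Fatp1, any transcript with 1 symbol, and the 2 transcripts most like Fatp1 in levels and the 2 most like it in diet changes. The gene, the lists and the tests were chosen with earlier results of these data known. Pool numbers are shared by the foods of a tissue, but not every same-numbered pair deviated together, so they were not treated as pairs. Alternatives varied the normalization, background, probe summary, probes, weights, filter, block and arrays.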

Additional observations from a re-analysis of the deposited data

Results flagged for a closer look

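Of 14 groups tested for an array far from the others, 1 held such a value: Fatp1 read 11.30 in tubule AL pool 4, and its gap to the next pool took 0.74 of the group's range, above Dixon's critical value of 0.625 for 6 samples. Chance gives such a value in about 1 of 20 groups. The correlation of this array with its group (0.969) was the lowest among the tubule arrays.

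The Fatp1 diet change differed between tissues in a test of the difference itself (F = 10.7), as it did for 90% of transcripts. Pairs that passed, as the first tissue's change minus the second's, were fat body and gut (0.57), fat body and neuron (-0.85), germ line and neuron (-1.24), germ line and tubule (-0.74), gut and neuron (-1.42), gut and tubule (-0.92), heart and neuron (-1.25), heart and tubule (-0.76), muscle and neuron (-1.32), and muscle and tubule (-0.82). The diet change of the later minus the earlier Fatp1 probes differed between tissues as well (F = 8.98).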

How the results depend on the processing

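The rises in fat body, neuron and tubule kept their direction and their call under the 19 alternatives to the fit that were run in each tissue and with each pool left out in turn. Their ranges over the alternatives were 0.46 to 0.69 in fat body, 1.38 to 1.69 in neuron and 0.75 to 1.08 in tubule. In germ line the change passed as higher with quantile normalization over all arrays (0.50), cyclic loess (0.52), probes 1 to 4 (0.64) and array weights (0.51), and turned to -0.24 with probes 5 to 8. Array weights there rest on DR pool 3, with a weight of 71.7. In heart it passed with median centring (0.39), probes 1 to 4 (0.42) and array weights (0.26), and was -0.0434 with probes 5 to 8. In muscle it passed with cyclic loess (0.36) and was -0.12 with probes 5 to 8. The gut value, near 0, was -0.00198 with quantile normalization, -0.0285 with array weights, -0.00739 without probe 2 and -0.00349 without probe 8. With array weights 16 pairs of tissues differed. Why these settings differ was not tested. In tubule the change of the later minus the earlier probes (0.28) did not pass with limma.

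Leaving out 1 pool at a time, the change lay between -0.0173 and 0.0555 in gut and between -0.0346 and 0.24 in muscle, in limma's fit and in the exact test, and the later minus earlier difference in gut between -0.0176 and 0.0498. Deviations of same-numbered pools from their group means correlated over 0.1 in 21 of 40 pairs, from -0.44 to 0.77, and no tissue had every pair over 0.1. Of the 40 numbers, 13 AL and 14 DR pools correlated best with their own number, a hint from the data that some numbers may mark paired pools. With the pool number as a replicate block, neuron gave 1.51, heart 0.22 and the mean of 7 tissues 0.52. The neuron and heart values equal those with DR pool 6 left out, since no AL pool there has its number. No call on a tissue changed with the block, and 12 pairs of tissues differed in place of 10. The 2 added were neuron with tubule (0.57, limma adjusted p = 0.00884) and fat body with muscle (0.46, limma adjusted p = 0.0249).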
